A study of Mus musculus with 62 samples.

Results

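Ccl8 and 8 other genes of the CC chemokine family (Ccl2, Ccl5, Ccl6, Ccl7, Ccl9, Ccl11, Ccl12 and Ccl24) were followed in white adipose tissue of female mice bearing melanoma cells. They are 9 of the 47643 gene symbols measured, picked by name with earlier results of these data known. Ccl8 had been noticed as the 1 gene called between CAC and mock tissue at 4 weeks, so its values in that comparison are given as a description. All 9 had a mean of at least 0.5 TPM (an abundance scaled for transcript length and to a fixed sum in each library) over the 62 libraries and were among the 14577 genes that passed this filter and were tested.

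The mice were injected with melanoma cells that cause cachexia, the wasting of fat and muscle seen in cancer (CAC), with melanoma cells that do not (NCAC), or were mock injected. Tissue was taken 2, 4, 6 and 8 weeks later, with 5 libraries a group except for 7 in CAC at 8 weeks. The mice were 2 months old. On strain the labels disagree, with NCI Ath/nude in the design text, C57BL6/J in the strain tags and C57BL/6J in the source names. Arm and week were taken from the sample descriptions, since all 62 treatment tags name the cachectic cells. The melanoma lines behind the arms are not named in the sources used here. Read depth is unknown because only TPM were used. Replicates are called biological in the labels.

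CC chemokines are small secreted proteins that direct leukocytes through receptors on their surface. Ccl2, Ccl7 and Ccl12 attract monocytes through Ccr2, Ccl8 is a close relative that in mice acts through Ccr8, and Ccl11 and Ccl24 are eotaxins that draw eosinophils through Ccr3. Ccl6 and Ccl9 are rodent ligands of Ccr1 made by myeloid cells, and Ccl5 attracts T cells and other leukocytes. In fat, macrophages are a main source of several of these proteins, while eosinophils are normal residents of lean tissue.

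The 9 genes differed widely in level per transcript length. Ccl11, Ccl6, Ccl8 and Ccl9 had medians over the 62 libraries of 84.0, 64.1, 25.2 and 26.7 TPM. Ccl24, Ccl12, Ccl5, Ccl7 and Ccl2 had medians of 6.79, 5.46, 3.28, 3.11 and 2.31 TPM. Ccl8 had the widest relative range of the 9, between 1.63 and 774 TPM, and Ccl11 the narrowest, between 38.2 and 136 TPM. Of the 9, 8 lie on chromosome 11 and Ccl24 lies on chromosome 5 (GRCm38). Ccl8 spans 82115185 to 82116799 of chromosome 11 and Ccl12 spans 82101845 to 82103400, both on the plus strand.

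Ccl8 was higher in CAC tissue than in NCAC tissue at 6 and 8 weeks. At 2 weeks the arms overlapped, with 40.1, 15.0, 27.7, 10.8 and 6.99 TPM in CAC tissue, 1.63, 3.34, 14.5, 37.7 and 7.00 TPM in NCAC tissue, and 79.9, 7.36, 6.34, 5.65 and 4.69 TPM in mock tissue. At 4 weeks the values were 76.5, 75.4, 64.5, 88.4 and 61.6 TPM in CAC tissue, 18.2, 42.9, 44.0, 3.29 and 14.0 TPM in NCAC tissue, and 12.6, 13.0, 6.04, 9.72 and 3.47 TPM in mock tissue. Every CAC library of 4 weeks lay above every NCAC and every mock library, and the CAC libraries were close to each other.

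**Figure D1:**
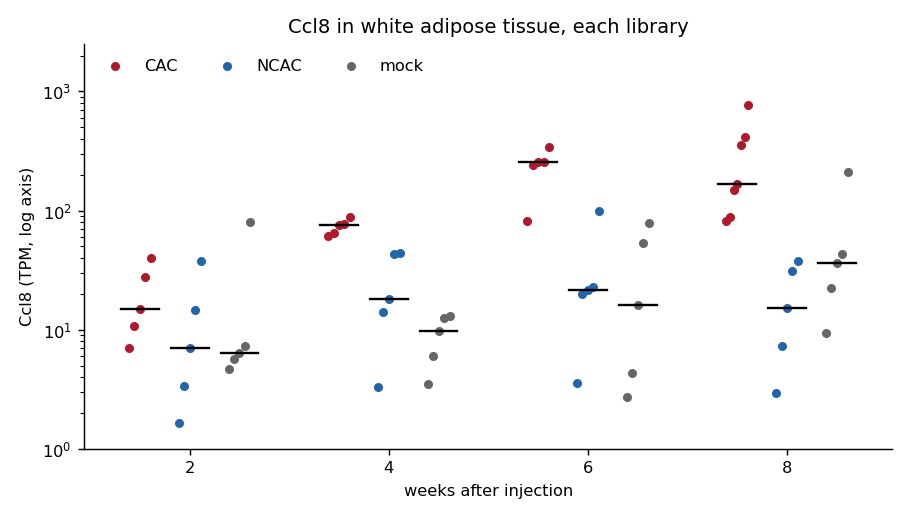
Ccl8 in TPM (log axis) in each of the 62 libraries against weeks after injection, with CAC, NCAC and mock tissue from left to right within each week and a bar at the group median. The CAC medians at 4, 6 and 8 weeks (75.4, 255 and 167 TPM) are above every other group median, of which mock tissue at 8 weeks is the highest at 36.6 TPM.

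At 6 weeks Ccl8 measured 82.4, 257, 339, 239 and 255 TPM in CAC tissue, 22.7, 21.7, 98.4, 19.8 and 3.57 TPM in NCAC tissue, and 16.1, 4.29, 2.70, 53.1 and 79.0 TPM in mock tissue. All CAC libraries were above all mock libraries, but NCAC replicate 3 was above CAC replicate 1. At 8 weeks the 7 CAC libraries ran between 82.1 and 774 TPM with a median of 167 TPM, against 37.7, 15.1, 7.35, 31.2 and 2.91 TPM in NCAC tissue and 36.6, 212, 9.40, 22.4 and 43.4 TPM in mock tissue. The CAC libraries of 8 weeks were all above the NCAC libraries, and mock replicate 2 was above 4 of them.

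Ordered by median, Ccl8 was highest in CAC tissue at 6, 8 and 4 weeks, then in mock tissue at 8 weeks. The range of CAC at 6 weeks (82.4 to 339 TPM) lay within that of CAC at 8 weeks (82.1 to 774 TPM). CAC at 4 weeks (61.6 to 88.4 TPM) overlapped with both. The other 9 groups, with medians between 6.34 and 36.6 TPM, overlapped with each other. Their highest libraries reached into the CAC ranges of 4, 6 and 8 weeks, with 98.4 TPM in NCAC tissue at 6 weeks and 212 TPM in mock tissue at 8 weeks. Mock tissue at 2 and 6 weeks, up to 79.9 and 79.0 TPM, reached into that of 4 weeks alone.

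Against NCAC tissue, Ccl8 rose by 3.29 at 6 weeks (log2 of TPM + 1, SE 0.70, limma adjusted p = 0.0303) and by 3.89 at 8 weeks (SE 0.66, limma adjusted p = 0.0248). Adjustment ran over all genes tested (Benjamini-Hochberg), and genes under 0.05 are named as called. Of 9 members, 2 were called higher at each week, Ccl8 and Ccl12, against 4.94% of all genes called higher at 6 weeks and 0.343% at 8 weeks, and 5.78% and 0.528% called in either direction. Called genes split into 720 higher and 123 lower at 6 weeks and 50 higher and 27 lower at 8 weeks, but into 331 and 335 and into 62 and 64 when mitochondrially encoded genes were left out before rescaling. At 4 weeks the log2 change of Ccl8 was 1.96 (SE 0.55, limma adjusted p = 0.981), a comparison in which 0 genes (0.0%) were called, 648 had an unadjusted p under 0.05, and groups did not overlap for 0.611% of genes. Leaving out single libraries moved the limma adjusted p of Ccl8 between 0.00796 and 0.0758 at 6 weeks and between 0.00818 and 0.0884 at 8 weeks. The call was lost without CAC replicates 2, 4 or 5 or NCAC replicates 1, 2 or 4 at 6 weeks, and without CAC replicates 1, 4, 5 or 7 or NCAC replicates 2, 4 or 5 at 8 weeks, while the log2 change stayed between 2.72 and 4.24.

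Against mock tissue the values of Ccl8 were in the same direction. At 4 weeks, where the gene had been noticed, the log2 change was 3.01 (SE 0.29), 1 gene (0.00686%) was called and groups did not overlap for 0.322% of genes. At 6 weeks it was 3.65 (SE 0.80, limma adjusted p = 0.0979), with 0 of 9 members called against 0.357% of all genes, and 1 member (Ccl8) without overlap against 2.67%. At 8 weeks it was 2.48 (SE 0.70, limma adjusted p = 0.0766), with 0 of 9 members called against 3.07% of all genes, and 0 without overlap against 3.13%. Without mock replicate 2 of 8 weeks, the highest mock library for Ccl8 in that week, the change was 3.10 (limma adjusted p = 0.0314).

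Within the CAC arm, Ccl8 was higher at 8 weeks than at 2 weeks by 3.60 (SE 0.57, limma adjusted p = 0.0218), and the 2 groups did not overlap. It was the 1 member called there, against 0.604% of all genes called higher, 0.796% called in either direction and 2.22% without overlap. The 116 genes behind this share became 6 to 377 when single libraries were left out. The split of 88 higher and 28 lower genes became 141 and 139 without mitochondrially encoded genes. Without CAC replicates 2, 4 or 5 of 2 weeks or replicate 4 of 8 weeks the call was lost, with limma adjusted p up to 0.0680. No member was called between 8 and 2 weeks in NCAC tissue or in mock tissue (0.0% of genes in each, with 709 and 564 at an unadjusted p under 0.05). The log2 difference of Ccl8 was 0.72 in NCAC tissue (SE 0.79, limma adjusted p = 0.899). In mock tissue it was 1.77 (SE 0.86, limma adjusted p = 0.789). The difference between the CAC effects of 8 and 2 weeks, tested directly against mock tissue, was 1.83 for Ccl8 (SE 1.08, limma adjusted p = 0.528), where 0.0549% of genes were called. Between 8 and 4 weeks it was -0.53 (SE 0.86), where 0.0% were called and 472 genes had an unadjusted p under 0.05. That value subtracts the 4-week effect in which Ccl8 had been noticed. It is a description and cannot decide whether the effect changed from 4 to 8 weeks.

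NCAC tissue gave no called member against mock tissue at 2, 4, 6 or 8 weeks, where 0.0% of genes were called by limma and 234, 115, 205 and 181 genes had an unadjusted p under 0.05. The difference between the NCAC effects of 8 and 2 weeks also had 0.0% of genes called, with 182 at an unadjusted p under 0.05. At 2 weeks CAC tissue had 0 of 9 members called against mock tissue (0.00686% of genes) and 0 of 9 against NCAC tissue (0.0%, with 528 genes at an unadjusted p under 0.05).

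Ccl12, a Ccr2 ligand known from mice, was the other called member. At 6 weeks it measured 11.6, 15.8, 18.4, 34.3 and 18.6 TPM in CAC tissue, 7.27, 8.03, 9.90, 3.74 and 1.17 TPM in NCAC tissue, and 5.30, 1.78, 2.36, 5.81 and 35.1 TPM in mock tissue. At 8 weeks it ran between 6.01 and 19.6 TPM with a median of 12.9 TPM in CAC tissue, against 4.44, 2.54, 3.67, 5.71 and 1.89 TPM in NCAC tissue and 6.67, 25.7, 5.72, 3.09 and 11.5 TPM in mock tissue. Every CAC library was above every NCAC library of its week, whereas 1 mock library of each week was above all CAC libraries.

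Against NCAC tissue Ccl12 rose by 1.68 at 6 weeks (SE 0.43, limma adjusted p = 0.0469) and by 1.60 at 8 weeks (SE 0.31, limma adjusted p = 0.0442). Groups did not overlap for 8.02% of all genes at 6 weeks and for 1.1% at 8 weeks. Both values lie near the threshold, and leaving out single libraries gave limma adjusted p between 0.0312 and 0.109 at 6 weeks and between 0.0165 and 0.162 at 8 weeks. The call held in 2 of 10 such fits at 6 weeks (without NCAC replicate 3 or 5) and in 2 of 12 at 8 weeks (without CAC replicate 3 or NCAC replicate 3). Under the other settings it held in 2 of 8 at 6 weeks and in 4 of 8 at 8 weeks. Leaving out mitochondrially encoded genes lost it at 6 weeks (limma adjusted p = 0.0712). Against mock tissue at 6 weeks the change was 1.52 (SE 0.60, limma adjusted p = 0.433), and 2.13 (limma adjusted p = 0.0153) without mock replicate 5. At 8 weeks it was 0.53 (SE 0.42, limma adjusted p = 0.538). Between 8 and 2 weeks the log2 difference of Ccl12 was 1.33 in CAC tissue (limma adjusted p = 0.187) and 1.33 in mock tissue (limma adjusted p = 0.789).

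Ccl8 and Ccl12 lie near each other on chromosome 11, and their levels ran together over the 62 libraries, with a Pearson r of 0.79 and a Spearman rho of 0.79 on the log2 scale. The libraries share their scaling to a fixed sum, and the groups differ, but within the groups r was still 0.65. Because both were called in the same comparisons, their promoter windows are shown, from RefSeq on GRCm38.p6, with 250 bases before and 50 after the annotated start and the TATAAA motif in capitals (chr11:82114935-82115234 and chr11:82101595-82101894, plus strand).
Ccl8: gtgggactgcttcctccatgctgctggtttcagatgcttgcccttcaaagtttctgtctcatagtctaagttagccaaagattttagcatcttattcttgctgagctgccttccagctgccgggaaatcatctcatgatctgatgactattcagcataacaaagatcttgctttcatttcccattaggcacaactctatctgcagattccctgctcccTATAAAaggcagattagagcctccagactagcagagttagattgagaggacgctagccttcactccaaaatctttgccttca
Ccl12: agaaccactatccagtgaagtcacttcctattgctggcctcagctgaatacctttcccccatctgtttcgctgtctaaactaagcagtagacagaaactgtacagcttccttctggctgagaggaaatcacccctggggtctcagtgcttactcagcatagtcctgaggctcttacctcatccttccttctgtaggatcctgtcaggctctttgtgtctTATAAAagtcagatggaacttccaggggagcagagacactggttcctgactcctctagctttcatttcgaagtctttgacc
The motif stands 32 bases before the start of Ccl8 and 31 before that of Ccl12, and 13.6% of 32851 mouse promoter windows of this length hold it on either strand. The aligned windows were identical at 55.7% of positions, against 44.3% to 50.4% for the other pairs of the 4 members with a window. Windows were at hand for Ccl6, Ccl8, Ccl9 and Ccl12. Searches on both strands for an NF-kB-like motif of GGG and CC with 5 bases between (in 50.8% of all windows), TTCNNNGAA (STAT, 8.3%), TGANTCA (AP-1, 7.81%), TTGCNNAA (C/EBP, 10.8%), the glucocorticoid receptor motif (0.475%) and an ISRE-like motif of TTTC and TTTC with 2 bases between (3.44%) found no match in the windows of Ccl8 and Ccl12. Ccl9 held 1 NF-kB-like and 1 AP-1 match.

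Ccl2 and Ccl7, the other monocyte attractants, were not called in any comparison. At 6 weeks Ccl2 measured 1.35, 1.13, 1.19, 1.58 and 1.51 TPM in CAC tissue, 3.76, 3.45, 8.07, 1.28 and 0.250 TPM in NCAC tissue, and 2.92, 0.691, 1.16, 5.49 and 26.5 TPM in mock tissue. At 8 weeks Ccl2 ran between 0.149 and 3.97 TPM with a median of 1.19 TPM in CAC tissue, against 4.36, 2.55, 0.811, 5.33 and 2.51 TPM in NCAC tissue and 9.77, 12.6, 2.40, 2.87 and 3.76 TPM in mock tissue. The ranges overlapped at both weeks. The log2 change of Ccl2 against mock tissue at 8 weeks was -1.36 (SE 0.41, limma adjusted p = 0.0900), and -1.53 (limma adjusted p = 0.0485) without CAC replicate 3. Ccl7 ran between 0.548 and 8.17 TPM with a median of 2.49 TPM in CAC tissue at 8 weeks, against 3.46, 1.70, 0.461, 7.58 and 2.60 TPM in NCAC tissue and 12.3, 20.7, 4.18, 2.36 and 11.8 TPM in mock tissue. Ccl7 thus overlapped between all arms, and CAC minus mock tissue was -1.16 (log2, SE 0.52, limma adjusted p = 0.224). Ccl2 and Ccl7 ran together over the libraries (Pearson r 0.86, Spearman rho 0.81), whereas r between Ccl2 and Ccl8 was 0.09 over all libraries and 0.60 within groups. Ccl2 and Ccl6 each overlap an annotated gene on the other strand, and the strand setting of the counting is not stated, so reads of the partners could be included.

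**Figure D2:**
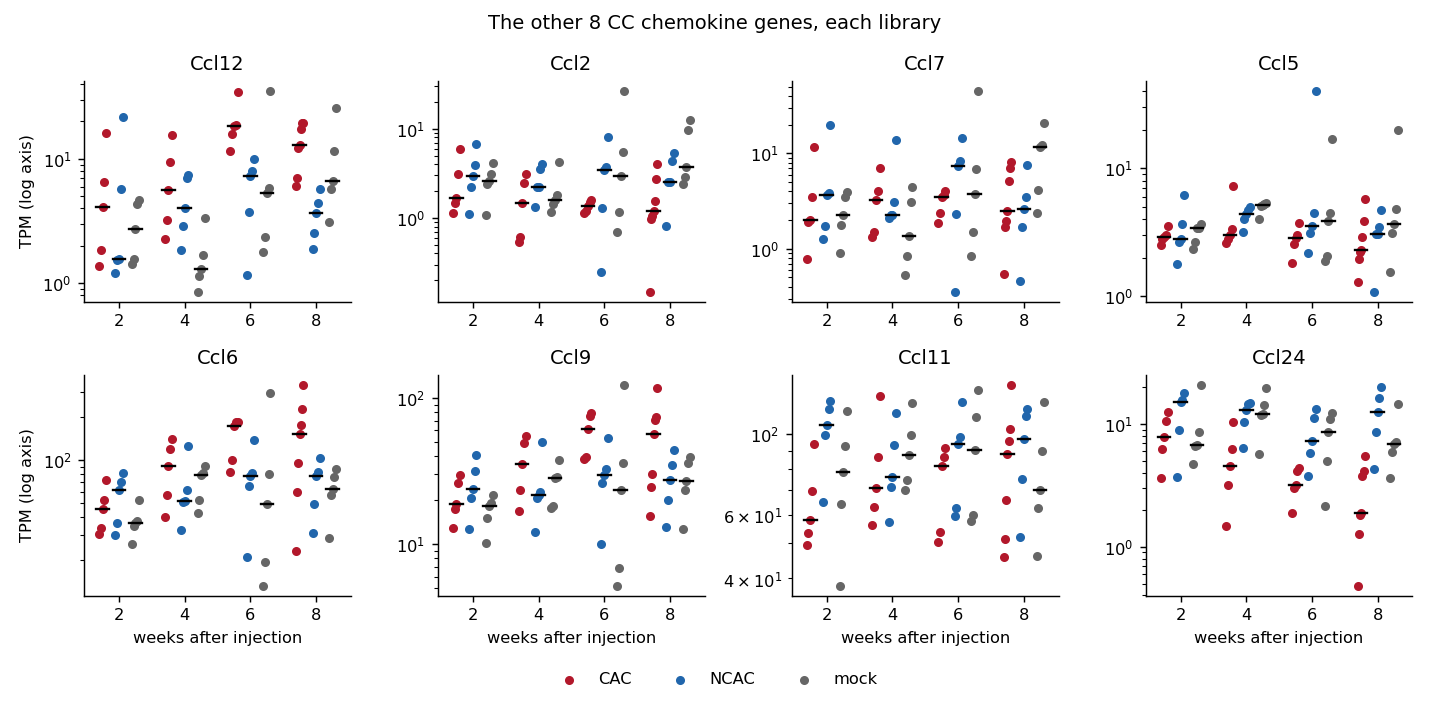
TPM (log axis, own scale in each panel) of the other 8 members in each library against weeks after injection, with CAC, NCAC and mock tissue from left to right and a bar at the median. Ccl12 is higher in CAC than in NCAC tissue at 6 and 8 weeks, and mock tissue at 6 weeks holds 1 library with 26.5 TPM of Ccl2, 45.1 TPM of Ccl7, 35.1 TPM of Ccl12 and 292 TPM of Ccl6.

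Ccl6 and Ccl9 were almost interchangeable over the libraries, with a Pearson r and a Spearman rho of 0.98. Their transcripts share an identical run of 25 bases, and how the authors' counting treats such reads is not given in the sources used here. Ccl6 had medians of 173 TPM in CAC tissue, 77.8 TPM in NCAC tissue and 49.3 TPM in mock tissue at 6 weeks, and 152, 77.4 and 62.3 TPM in the same order of arms at 8 weeks. The log2 change against NCAC tissue at 6 weeks was 1.05 for Ccl6 (SE 0.44, limma adjusted p = 0.166) and 1.04 for Ccl9 (SE 0.38, limma adjusted p = 0.124), so neither passed the test. Both tracked the sum of 10 general macrophage markers, such as Adgre1, Csf1r and C1qa, with r of 0.90 for each.

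Among the eotaxins, Ccl24 had its lowest levels in late CAC tissue. At 6 weeks it measured 3.21, 4.42, 4.18, 3.03 and 1.87 TPM in CAC tissue, 3.80, 11.2, 13.3, 7.21 and 5.85 TPM in NCAC tissue, and 8.66, 5.03, 2.13, 10.9 and 12.4 TPM in mock tissue. At 8 weeks it ran between 0.481 and 5.53 TPM with a median of 1.88 TPM in CAC tissue, against 12.5, 20.1, 4.28, 16.2 and 8.55 TPM in NCAC tissue and 7.13, 5.87, 3.66, 14.5 and 6.87 TPM in mock tissue. The groups overlapped in each of these comparisons.

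The log2 changes of Ccl24 missed the threshold in these fits, but not under every scaling. Against NCAC tissue they were -1.18 at 4 weeks (SE 0.38, limma adjusted p = 0.981), -1.02 at 6 weeks (SE 0.29, limma adjusted p = 0.0633) and -1.85 at 8 weeks (SE 0.41, limma adjusted p = 0.0658). Against mock tissue at 8 weeks the difference was -1.26 (SE 0.37, limma adjusted p = 0.0840). The change from NCAC tissue at 6 weeks passed without NCAC replicate 1 (-1.23, limma adjusted p = 0.0331), and that at 8 weeks without CAC replicate 3 (-1.82, limma adjusted p = 0.0461) or NCAC replicate 3 (-2.15, limma adjusted p = 0.00795). Ccl24 was also called lower than in NCAC tissue with mitochondrially encoded genes left out (limma adjusted p = 0.0333 at 6 weeks and 0.0481 at 8 weeks), with median-ratio rescaling (limma adjusted p = 0.0271 and 0.0379) and with library weights (limma adjusted p = 0.0142 and 0.00325). Ccl11, the other eotaxin, had group medians between 57.8 and 106 TPM and no call in any comparison. Ccl5 was likewise not called in any comparison, with group medians between 2.29 and 5.17 TPM and 1 NCAC library of 6 weeks at 40.2 TPM.

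**Figure D3:**
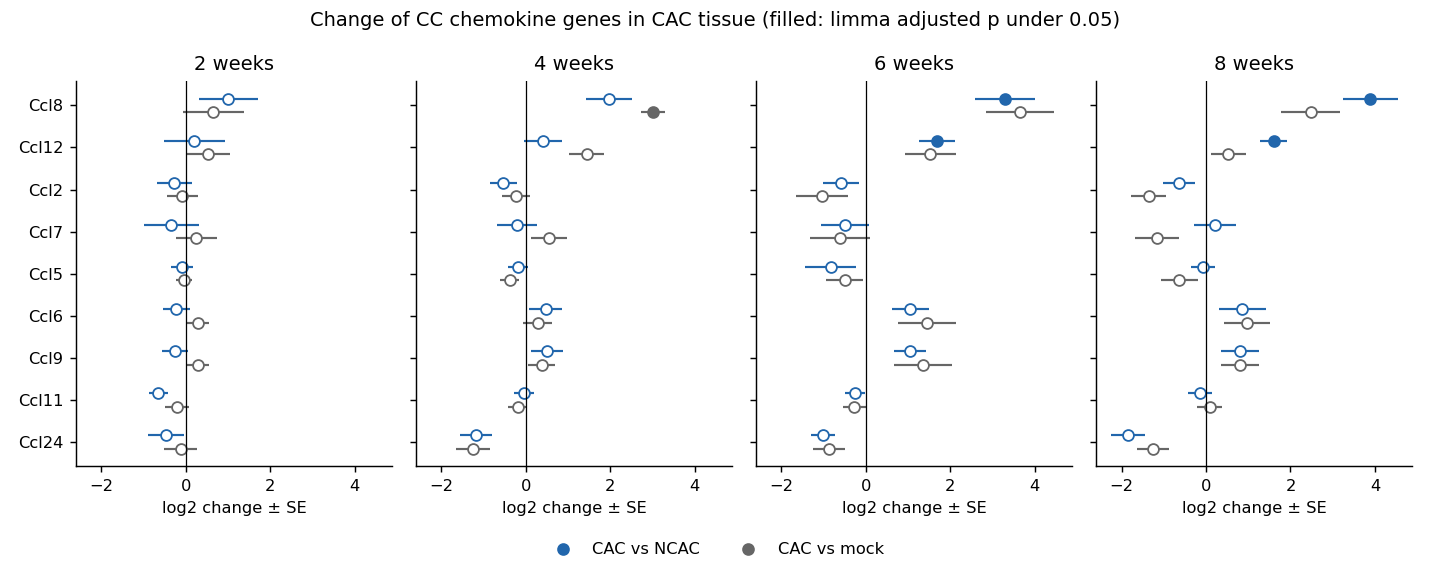
Log2 change of each member in CAC tissue against NCAC tissue (blue) and mock tissue (grey) at 2, 4, 6 and 8 weeks, with limma standard errors as bars and filled points where the limma adjusted p is under 0.05. Ccl8 and Ccl12 are filled against NCAC tissue at 6 and 8 weeks, and Ccl8 against mock tissue at 4 weeks, the comparison it was noticed in.

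Over all members the median log2 change was -0.25 against NCAC tissue at 6 weeks and 0.21 at 8 weeks, beside 0.13 and -0.03 for all genes tested, and members lay on both sides of zero. Comparisons with NCAC and with mock tissue use the same CAC libraries and are not independent of each other.

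Macrophage markers were set beside Ccl8, since in bulk tissue fewer cells of a type and less RNA per cell cannot be told apart. The summed general macrophage markers ran between 470 and 900 TPM in CAC tissue, 225 and 961 TPM in NCAC tissue and 155 and 1737 TPM in mock tissue at 6 weeks, and between 252 and 1440 TPM in CAC tissue, 226 and 814 TPM in NCAC tissue and 289 and 1137 TPM in mock tissue at 8 weeks. These ranges overlapped, and 1 of the 10 markers (Cd14) was called higher against NCAC tissue at 6 weeks, 0 at 8 weeks. Of 10 markers of resident macrophages, 2 (Cd163 and Clec10a) were called higher there at 6 weeks, against 4.94% of all genes, and 0 at 8 weeks. Their sum lay the other way, with medians of 457 TPM in CAC tissue and 1161 TPM in NCAC tissue at 6 weeks and 485 TPM in CAC tissue and 1110 TPM in NCAC tissue at 8 weeks, in ranges that overlapped. Most of that sum came from 1 gene, Retnla, with a mean of 571 TPM over the 62 libraries. Each other marker of the list had a mean between 5.67 and 44.3 TPM. Per 100 TPM of the general macrophage markers, median Ccl8 was 3.49, 12.7, 38.7 and 45.9 TPM in CAC tissue at 2, 4, 6 and 8 weeks, 1.71, 4.60, 4.86 and 3.25 TPM in NCAC tissue, and 1.67, 2.11, 4.09 and 5.55 TPM in mock tissue. At 6 weeks the ratio was between 9.89 and 54.3 in CAC tissue, 1.58 and 10.2 in NCAC tissue and 1.73 and 7.67 in mock tissue, so that CAC and NCAC tissue overlapped. At 8 weeks it was between 9.59 and 65.8 in CAC tissue, 0.726 and 5.81 in NCAC tissue and 3.25 and 18.7 in mock tissue, so that CAC and mock tissue overlapped. Some other myeloid markers, but not all, ran with Ccl8. Neutrophil markers had median sums of 36.1 TPM in CAC tissue and 21.4 TPM in NCAC tissue at 6 weeks and 39.1 TPM in CAC tissue and 16.4 TPM in NCAC tissue at 8 weeks, with overlapping ranges. Monocyte markers had median sums of 66.0 TPM in CAC tissue and 45.1 TPM in NCAC tissue at 6 weeks and 95.8 TPM in CAC tissue and 48.8 TPM in NCAC tissue at 8 weeks, also overlapping. The neutrophil marker Csf3r (limma adjusted p = 0.0117) and the monocyte marker Plac8 (limma adjusted p = 0.0152) were called higher in CAC than in NCAC tissue at 6 weeks, 1 of 4 and 1 of 5 markers tested. Over the 62 libraries the Spearman rho of Ccl8 was 0.70 with monocyte markers, 0.59 with general macrophage markers and 0.54 with neutrophil markers. Within the CAC arm alone, Pearson r with these lists was 0.27, 0.50 and 0.53. In NCAC tissue it was 0.50, 0.72 and 0.22, and in mock tissue 0.84, 0.77 and 0.39. Over all libraries the rho was -0.08 with resident macrophage markers and -0.09 with markers of lipid-associated macrophages. With eosinophil markers it was -0.33, and with mast cell markers 0.14. Some of these pooled values mix arms of opposite sign. Pearson r with resident macrophage markers was -0.29 in CAC, 0.52 in NCAC and 0.34 in mock tissue. With eosinophil markers it was -0.47, 0.51 and 0.29, and with mast cell markers -0.16, 0.67 and 0.48. The part of these cells in the Ccl8 values was not tested.

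**Figure D4:**
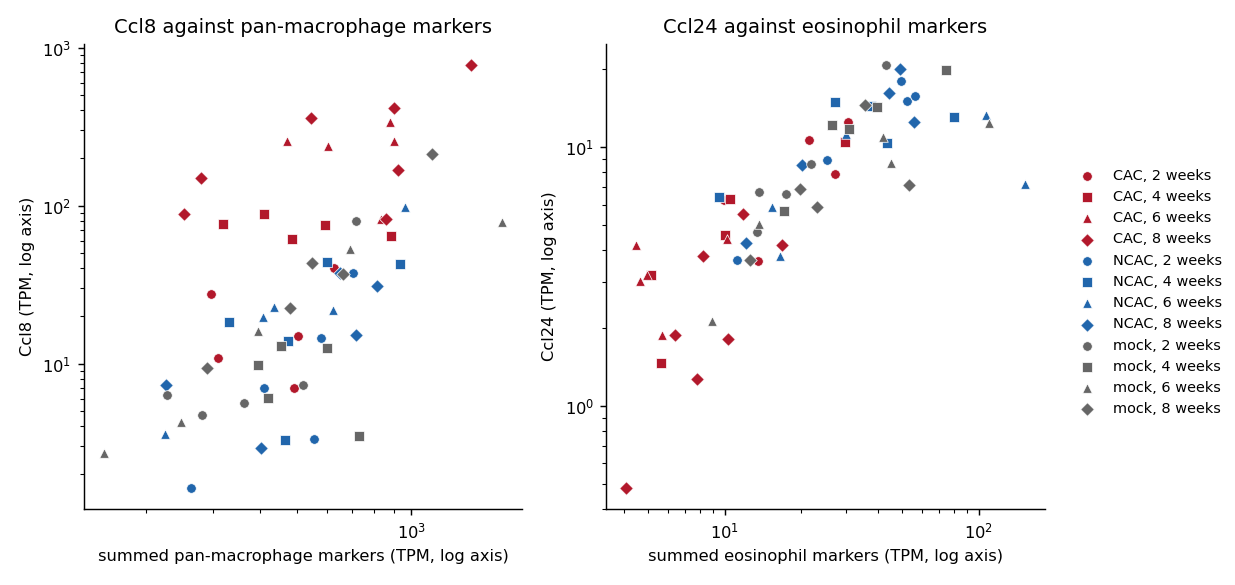
Left, Ccl8 against the summed general macrophage markers, and right, Ccl24 against the summed eosinophil markers, both in TPM on log axes, 1 point per library with colour for the arm and shape for the week. CAC libraries of 4, 6 and 8 weeks hold more Ccl8 than most other libraries at the same marker sum, while Ccl24 and the eosinophil markers are both low in many CAC libraries of 6 and 8 weeks.

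Ccl24 ran with markers of eosinophils (r 0.83) and of resident macrophages (r 0.83) over the 62 libraries. The gene most like Ccl24 was Retnla, a product of alternatively activated macrophages and other cells, with r of 0.87. Retnla is in the resident macrophage list and makes up most of its sum, so these values of r are not separate results. Retnla was lower in CAC tissue than in mock tissue at 8 weeks with a log2 difference of -1.54 (SE 0.38, limma adjusted p = 0.0451). The summed eosinophil markers ran between 4.49 and 10.3 TPM in CAC tissue, 15.4 and 152 TPM in NCAC tissue and 8.88 and 110 TPM in mock tissue at 6 weeks, and between 4.10 and 16.8 TPM in CAC tissue, 12.1 and 55.5 TPM in NCAC tissue and 12.5 and 53.3 TPM in mock tissue at 8 weeks. Of the 4 eosinophil markers tested, Rnase2a, an eosinophil-associated ribonuclease, was called lower in all 4 of these comparisons of CAC tissue, and it differed by -3.48 (log2) from NCAC tissue at 6 weeks (SE 0.69, limma adjusted p = 0.0220). Of the 9 eosinophil markers listed, Epx and Ear6 had medians of 0 TPM and Siglecf 0.0766 TPM, and most of the sum came from Rnase2a and Ear2. Ccl24 also ran with mast cell markers (r 0.68) and with fibroblast and progenitor markers (r 0.67). Within CAC, NCAC and mock tissue, r of Ccl24 was 0.79, 0.64 and 0.80 with eosinophil markers. With general macrophage markers it was 0.26, 0.81 and 0.55. The part of any of these cells in the Ccl24 values was not tested.

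Genes whose pattern over the 62 libraries was most like Ccl8 were Clec4n (r 0.85), a C-type lectin receptor of myeloid cells, Socs3 (0.84), a feedback inhibitor of cytokine signalling, C4b (0.84), a complement component, Bcl3 (0.84), a regulator of NF-kB, and Csf2rb2 (0.82), a cytokine receptor chain. Within groups these correlations were between 0.57 and 0.76. Ccl5 ran with Nkg7 (0.85) and Cd3g (0.83), genes of cytotoxic and T lymphocytes. By Spearman rho these were lower, 0.66 for Nkg7 and 0.45 for Cd3g, whose median was only 0.226 TPM. Ccl6 and Ccl9 ran with Fcgr2b and Pirb (0.92 to 0.93), receptors of myeloid and B cells. Ccl12 ran with Npl (0.78) and with Fcgr1 (0.77), which is also in the macrophage list. All are descriptions over libraries that share their scaling, with no test.

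Of 15 further CC ligands listed, 14 were in the table and 6 were tested, and 0 were called in any comparison. Ccl21a, a lymphatic chemokine with a median of 84.9 TPM, ran between 0 and 1416 TPM, and the other 5 tested ligands had medians between 0.391 and 2.87 TPM. Of 15 CC receptors and decoys, 7 were tested in each comparison and Ackr1, an endothelial decoy that binds many chemokines, was the 1 called. Ackr1 was higher in CAC than in NCAC tissue at 6 weeks by 1.38 (SE 0.30, limma adjusted p = 0.0263) and in CAC tissue at 8 weeks than at 2 weeks by 1.23 (SE 0.19, limma adjusted p = 0.0194). Of all genes, 4.94% were called higher in the first of these comparisons and 0.604% in the second. Among receptors of the members, median levels were 3.81 TPM for Ccr1, 5.76 TPM for Ccr2, 0.155 TPM for Ccr3 and 0.0486 TPM for Ccr8.

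Among 16 CXC, CX3C and XC chemokines, with up to 12 tested, the called genes moved in both directions. Cxcl13, a B cell attractant, was higher in CAC than in NCAC tissue at 6 weeks by 3.09 (SE 0.47, limma adjusted p = 0.00713), with 31.3 to 181 TPM in CAC tissue against 4.42 to 10.8 TPM in NCAC tissue. Cxcl9, which interferon gamma induces, was lower in CAC than in NCAC tissue at 6 weeks with a log2 difference of -2.11 (SE 0.23, limma adjusted p = 0.000881) and at 8 weeks with -1.84 (SE 0.36, limma adjusted p = 0.0442). Cxcl12 was higher than in NCAC tissue at 6 weeks, by 0.83 (SE 0.18, limma adjusted p = 0.024). Of all genes, 5.78% were called against NCAC tissue at 6 weeks and 0.528% at 8 weeks. Against mock tissue at 8 weeks Cxcl9 and Cxcl16 were lower (-1.93 and -1.97, limma adjusted p = 0.0224 and 0.0328). Among the 20 listed transcription factors and feedback genes, 1 was called against NCAC tissue at 6 weeks, beside 5.78% of all genes. It was Stat3, with 1.45 (SE 0.20, limma adjusted p = 0.00382). Tsc22d3 from this list was called against the mock arm of 8 weeks, with 1.65 (SE 0.34, limma adjusted p = 0.0242). There 3.07% of all genes were called.

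Libraries also differed in markers of another tissue. Urothelial markers, which belong to bladder lining, summed above 100 TPM in 3 of 5 CAC libraries at 6 weeks and 4 of 7 at 8 weeks, against 0 of 5 NCAC libraries at each of these weeks. Without the libraries above 100 TPM, the log2 difference of Ccl8 between CAC and NCAC tissue was 3.71 at 6 weeks (SE 1.04, limma adjusted p = 0.317) and 3.96 at 8 weeks (SE 0.88, limma adjusted p = 0.920), with 2 and 3 CAC libraries left. The size of the difference was as large without them, and 0 members were called. In the CAC arm at 8 weeks against 2 weeks the change of Ccl8 was then 2.73 (SE 0.85, limma adjusted p = 1.00).

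Markers of T cells summed to between 0.442 and 21.6 TPM over the 62 libraries. Fibroblast and progenitor markers were between 243 and 547 TPM in CAC tissue, 195 and 1625 TPM in NCAC tissue and 680 and 4493 TPM in mock tissue at 8 weeks, and their part in the values of Ccl2, which ran with them at r 0.76, was not tested. Adipocyte markers were high in every library, with at least 3918 TPM in sum.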

How the data were processed

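The authors deposited 1 table of TPM for 62 libraries, each summing to 1000000, and 0 of its columns were left without a sample. Libraries were stranded TruSeq mRNA libraries read on a NovaSeq, per the labels' protocols, and reads were placed on mm10, per the submitters' processing notes. Which aligner and counter made the TPM is not given in the sources used here. Without depths no counting intervals could be formed. TPM were transformed to log2(TPM + 1), and genes averaging 0.5 TPM or more were fitted with limma 3.58.1 in R 4.3.3 (trend and robust prior) on the groups compared, two-sided, with Benjamini-Hochberg adjustment over all genes. Coordinates come from GENCODE M21 (GRCm38). Fits were tested on simulated data.

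The members, lists and tests were chosen with earlier results of these data known. Named are all 9 members, the 5 genes with the highest Pearson r to Ccl8, the 2 highest for each other member, and called genes of the lists, at most 3 a direction. Mitochondrially encoded genes took 17.2% to 44.4% of TPM. Alternatives were another pseudocount, no filter, 2 rescalings, 1 fit of all libraries, library weights, a replicate block and libraries left out.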

Additional observations from a re-analysis of the deposited data

Results flagged for a closer look

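Of 108 groups of member values, 7 held a library whose gap to its nearest neighbour was unusually large for the range of its group, and chance gives about 1 in 20. Ccl8 was 82.4 TPM in CAC replicate 1 at 6 weeks, the lowest of its group, where the next was 239 TPM, and 79.9 TPM in mock replicate 1 at 2 weeks, the highest, where the next was 7.36 TPM. Ccl5 was 7.23 TPM in CAC replicate 2 at 4 weeks and 40.2 TPM in NCAC replicate 3 at 6 weeks, each the highest, and 4.01 TPM in mock replicate 5 at 4 weeks, the lowest. Ccl7 was 13.8 TPM in NCAC replicate 2 at 4 weeks, and Ccl2 was 4.21 TPM in mock replicate 1 at 4 weeks, each the highest of its group.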

How the results depend on the processing

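Other settings were tried for the 35 member-by-comparison values with an unadjusted limma p under 0.05 in the main fits. That choice favours a kept sign. Of the resulting 692 values, 600 kept direction and side of the threshold, 53 were no longer called, 39 became called and 0 changed sign. Only values called in the main fits could lose a call. Ccl8 against NCAC tissue stayed called in 10 of 18 settings at 6 weeks and 10 of 20 at 8 weeks. For Ccl12 it was 4 of 18 and 6 of 20. Ccl8 stayed called in 16 of 18 against mock tissue at 4 weeks and in 14 of 19 between CAC at 8 and 2 weeks. Counts of called members moved more, and the causes were not tested.

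For CAC against mock tissue at 4 weeks (1 called) the count was 0 with all 62 libraries in 1 fit and 0 without the urothelial libraries. At 6 weeks (0) it was 1 with median-ratio rescaling, 1 with all libraries in 1 fit, 6 with library weights and 1 without libraries above 2500 TPM of fibroblast markers, a setting chosen after seeing the data, and leaving out single libraries gave 0 to 1 (1 without mock replicate 5). At 8 weeks (0) it was 3 without mitochondrially encoded genes, 1 with median-ratio rescaling, 2 with 1 fit, 1 with library weights and 1 without the fibroblast-rich libraries, and single libraries gave 0 to 1 (1 without CAC replicate 3 or mock replicate 2).

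For CAC against NCAC tissue at 6 weeks (2) it was 1 with a pseudocount of 0.1, 1 with no filter, 1 with 1 fit, 4 with library weights and 0 without the urothelial libraries, and single libraries gave 0 to 2. At 8 weeks (2) it was 0 with no filter and 0 without the urothelial libraries, and single libraries gave 0 to 3. There Ccl24 was also called, lower, without mitochondrially encoded genes, with median-ratio rescaling, with 1 fit and with library weights (limma adjusted p = 0.0481, 0.0379, 0.00245 and 0.00325), and Ccl12 was not called with 1 fit (limma adjusted p = 0.0673). For CAC at 8 against 2 weeks (1) it was 2 with median-ratio rescaling, 2 with 1 fit, 5 with library weights and 0 without the urothelial libraries, and single libraries gave 0 to 2. For mock tissue at 8 against 2 weeks (0) it was 2 with library weights.

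Whether same-numbered libraries deviated together differed between comparisons. Correlations above 0.1 were found in 0 of 5 pairs for NCAC against mock tissue at 4 and at 6 weeks. For CAC against NCAC tissue they were found in 4 of 5 pairs at 4 weeks (up to 0.39). In that comparison it was 2 of 5 pairs at 6 weeks (up to 0.25) and 3 of 5 at 8 weeks (up to 0.53). With the replicate number as a block, the count of called members was 1 for CAC against mock tissue at 8 weeks. It was 0 for CAC against NCAC tissue at 8 weeks. For CAC against NCAC tissue at 6 weeks the replicate block left the count at 2 with different genes: Ccl8 and Ccl12 were no longer called (limma adjusted p = 0.0557 and 0.0890), while Ccl6 and Ccl24 were (limma adjusted p = 0.0471 and 0.0252).

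Counts over all genes moved too. For CAC against NCAC tissue they were 843 at 6 weeks, between 62 (without urothelial libraries) and 3307 (library weights), and 77 at 8 weeks, between 0 and 3061 in the same settings. For CAC against mock tissue they were 52 at 6 weeks, between 5 and 2758, and 448 at 8 weeks, between 0 (without urothelial libraries) and 2061 (without mitochondrially encoded genes). For CAC at 8 against 2 weeks they were 116, between 0 and 2241. Leaving out single libraries gave 210 to 1682 and 7 to 1253 genes for CAC against NCAC tissue at 6 and 8 weeks, 22 to 159 and 131 to 647 for CAC against mock tissue at 6 and 8 weeks, and 6 to 377 for CAC at 8 against 2 weeks. The median of all genes for CAC against NCAC tissue at 6 weeks was 0.13 and moved to -0.02 without mitochondrially encoded genes.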

Other observations

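Outside the CC family, several genes of the myeloid marker lists were called in late CAC tissue, some of them named above. Chil3, a chitinase-like protein of myeloid cells and the 1 of 5 monocyte markers called at 8 weeks, was higher at 8 weeks in CAC tissue than in mock tissue by 2.57 (log2, SE 0.41, limma adjusted p = 0.0110) and than in NCAC tissue by 2.37 (SE 0.47, limma adjusted p = 0.0455). Of all genes, 3.07% and 0.528% were called in these 2 comparisons. Gpnmb, a glycoprotein of lipid-loaded macrophages and 1 of 7 markers of that list, was higher in CAC than in NCAC tissue at 6 weeks by 2.34 (SE 0.47, limma adjusted p = 0.0211), where 4.94% of all genes were called higher. At 8 weeks 0 of these 7 were called against either arm. Col1a1, Lum and Dpt, which encode matrix proteins of fibroblasts, were 3 of 8 fibroblast and progenitor markers called, against 3.07% of all genes, and were lower in 8-week CAC tissue than in its mock counterpart, with -3.15, -2.10 and -1.94 on the log2 scale (limma adjusted p = 0.0210, 0.0433 and 0.0183).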
